A study of Rattus norvegicus with 4 samples.

Results

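The core naive pluripotency transcription factors examined here are 10 genes, *Pou5f1*, *Sox2*, *Nanog*, *Klf2*, *Klf4*, *Klf5*, *Tbx3*, *Esrrb*, *Tfcp2l1* and *Prdm14*, taken by gene symbol from the 34773 genes of the count table. Each symbol matched 1 gene, and all 10 passed the filter on low counts that left 15028 genes for testing. Poly(A) RNA was sequenced from rat embryonic stem cells (ESCs). The control, labelled WT, was 1 library of DA-5-3GFP, an ESC line that carries a GFP reporter at *Rex1* (*Zfp42*). The other 3 libraries came from *Thop1*-KOGFP subclones #1, #2 and #3, which were made from that line with Cas9 and carry the same reporter. Each subclone is 1 clone with 1 library, picked after transfection and puromycin selection, whereas the control line was not selected in that way. The difference between genotypes therefore cannot be told apart from effects of cloning and selection, or from anything particular to the single control library. Rat ESCs were grown on feeders, per the methods, in 2i/LIF medium, that is, with LIF, the MEK inhibitor PD0325901 and the GSK3 inhibitor CHIR99021. DA-5-3 is given as diploid in the paper but as haploid in the GEO design text. The comparison asks how the transcriptome of undifferentiated ESCs differs once *Thop1*, the gene of a cytosolic oligopeptidase, has been disrupted.

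Naive ESCs keep their identity through a network of transcription factors that bind one another's regulatory regions. POU5F1 (OCT4) and SOX2 bind DNA side by side and are needed in pluripotent cells of both the naive and the primed state, while NANOG, ESRRB, TFCP2L1, TBX3, PRDM14 and the Krüppel-like factors KLF2, KLF4 and KLF5 mark or stabilise the naive state. In rodent ESCs, LIF acts through STAT3 on *Klf4* and *Tfcp2l1*, and GSK3 inhibition relieves the repression by TCF7L1 of targets that include *Esrrb*, *Tfcp2l1*, *Nanog* and *Klf2*.

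Of the 10 factors, 2 were higher in the *Thop1*-KO subclones and 0 were lower. *Esrrb* was 19.7-fold and *Tfcp2l1* 7.40-fold above the control in the mean of the subclones. *Sox2*, *Tbx3* and *Prdm14* lay above the control in each subclone, but their differences did not pass the test. *Pou5f1*, *Nanog*, *Klf2*, *Klf4* and *Klf5* had control values inside the range of the subclones. Among all genes tested, 13.8% were called, 8.62% as higher and 5.17% as lower in the subclones. A call is an adjusted p under 0.05 in edgeR's quasi-likelihood test, with the Benjamini-Hochberg correction taken over the 15028 genes. At an unadjusted p under 0.05 the number of factors was again 2, both higher. Unadjusted p-values near that limit were common, since *Sox2*, at an edgeR p of 0.0556, ranked 5312 among the 15028 genes. DESeq2 and limma also called 2 factors higher and 0 lower. The median log2 fold change was 0.28 over the 10 factors and 0.06 over all genes tested, and the median size of the log2 fold change, regardless of sign, was 0.48 and 0.79.

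Library totals ran from 15405499 to 17936544 counts. *Thop1* itself was at 110, 92.5 and 149 CPM (library-size-scaled counts, with edgeR's TMM factors) in #1, #2 and #3, against 370 for DA-5-3GFP. Its log2 fold change was -1.66 with a standard error of 0.29 (edgeR adjusted p = 0.0187). The libraries labelled KO thus held less *Thop1* RNA than the control, and none lacked it. The paper examined the subclones by DNA sequencing of the target and by western blot of THOP1. It also compared their *Thop1* expression level with that of DA-5-3GFP. RNA counts measure neither the DNA change nor the protein. With 1 library against 3, the smallest p of an exact permutation test is 0.25, so every adjusted p rests on edgeR's variance model with the spread among the subclones. These p-values measure the spread between the 3 clones only. In bulk RNA, fewer cells that express a gene and less RNA per cell cannot be told apart.

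Promoter windows of 250 bases before the gene start were available in RefSeq sequences (build GRCr8) for 6 of the 10 factors: *Sox2*, *Nanog*, *Klf4*, *Klf5*, *Esrrb* and *Tfcp2l1*. The windows of *Esrrb* and *Tfcp2l1* are shown because these are the called genes, and that of *Nanog* because it holds neighbouring octamer and SOX letters. They are the plus-strand windows chr6:111738412-111738661 for *Esrrb*, chr13:32286393-32286642 for *Tfcp2l1* and chr4:157615437-157615686 for *Nanog*, with the base before the start at the right end. Capitals mark matches to the letters searched.
Esrrb: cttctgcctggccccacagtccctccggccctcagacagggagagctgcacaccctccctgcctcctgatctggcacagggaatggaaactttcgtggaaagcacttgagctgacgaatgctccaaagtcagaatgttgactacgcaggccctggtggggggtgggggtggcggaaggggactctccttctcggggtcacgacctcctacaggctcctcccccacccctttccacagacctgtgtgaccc
Tfcp2l1: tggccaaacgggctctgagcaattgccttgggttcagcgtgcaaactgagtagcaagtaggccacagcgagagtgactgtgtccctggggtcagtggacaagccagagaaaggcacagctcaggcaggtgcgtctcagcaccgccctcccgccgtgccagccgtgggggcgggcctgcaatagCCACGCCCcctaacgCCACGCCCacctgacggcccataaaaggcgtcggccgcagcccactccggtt
Nanog: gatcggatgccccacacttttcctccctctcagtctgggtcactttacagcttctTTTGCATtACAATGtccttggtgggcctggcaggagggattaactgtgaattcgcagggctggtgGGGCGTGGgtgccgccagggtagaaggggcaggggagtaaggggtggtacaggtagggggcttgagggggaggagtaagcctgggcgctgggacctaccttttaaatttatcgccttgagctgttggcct

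On both strands, 7 short motifs were searched: TTTGCAT (octamer core, bound by POU5F1), ACAATG (SOX core), GGGCGTGG and GGGTGTGG (KLF), AAGGTCA (ESRRB), ATCAAAG (TCF) and TTCCNGGAA (STAT). No matches overlapped each other. The *Nanog* window held TTTGCAT at 195 to 189 bases and ACAATG at 187 to 182 bases before the start, with 1 base between them, and GGGCGTGG at 130 to 123 bases. This spacing of octamer and SOX letters occurred in 2 of 33469 promoter windows of this length (0.00598%), those of *Nanog* and *Nrarp*. The *Tfcp2l1* window held the KLF letters in reverse complement, CCACGCCC, at 67 to 60 and at 52 to 45 bases before the start. GGGCGTGG was present in 4.04% of all windows, TTTGCAT in 4.08% and ACAATG in 11.1%. *Sox2* had ATGCAAA, the reverse complement of the octamer core, at 159 to 153 bases before its start. None of the letters were in the windows of *Esrrb*, *Klf4* and *Klf5*. The other KLF form, present in 2.84% of all windows, and the ESRRB (3.99%), TCF (3.15%) and STAT letters (1.07%) were in none of the 6. A match is a description of letters, and whether the counted transcripts start at these positions was not tested.

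*Esrrb* (ENSRNOG00000010259, chromosome 6, 110410141 to 110455906 on the plus strand of the deposited annotation) encodes an orphan nuclear receptor that binds many of the sites held by the other factors. Its counts were 5537, 5064 and 5894 in #1, #2 and #3, and 237 for DA-5-3GFP. In TMM-scaled CPM these were 330, 286 and 328 against 15.9. All subclones were thus far above the control and close to one another, at 315 ± 24.6 CPM (SD, n = 3), with a coefficient of variation (CV) of 7.83%. The log2 fold change was 4.30 with a standard error of 0.30 (edgeR adjusted p = 0.00678), and its 95% interval ran from 3.58 to 5.02, or 12.0-fold to 32.5-fold. By p-value *Esrrb* ranked 3 among the 15028 genes and 1 among the 974 tested genes with a transcription factor family in the deposited annotation. By log2 fold change its rank was 521 among all genes and 49 among those transcription factors. Of the 974, 107 (11.0%) were called higher and 25 (2.57%) lower.

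*Tfcp2l1* (ENSRNOG00000002414, chromosome 13, 34610684 to 34670124, plus strand) encodes a CP2-family factor that acts downstream of LIF and STAT3. Its counts were 3881, 4485 and 5022 in #1, #2 and #3 and 512 in the control. The CPM values were 231, 254 and 279 against 34.5, so that the subclones, at 255 ± 24.1 CPM (SD, n = 3), again stood together above the control. The log2 fold change was 2.89 with a standard error of 0.28 (edgeR adjusted p = 0.00678, 95% interval 2.21 to 3.56, or 4.63-fold to 11.8-fold). Its p-value ranked 51 among all genes and 4 among the transcription factors. Both genes passed the test in each of the 12 alternative settings, with log2 fold changes of 4.19 to 4.37 for *Esrrb* and 2.64 to 2.96 for *Tfcp2l1*.

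**Figure D1:**
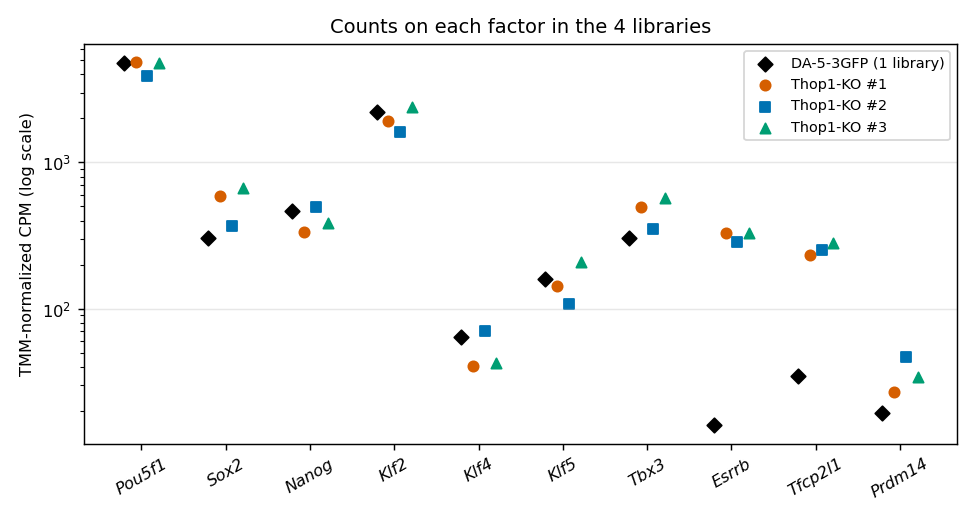
TMM-scaled CPM (log axis) of the 10 factors in the control and the 3 *Thop1*-KO subclones, each symbol 1 library. *Esrrb* and *Tfcp2l1* have the control point well apart, at 15.9 and 34.5 CPM, while the control lies inside the subclones for *Pou5f1*, *Nanog* and the *Klf* genes.

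*Pou5f1* (ENSRNOG00000046487, chromosome 20, 3747221 to 3751994, minus strand) encodes the POU factor without which pluripotent cells do not form. Its CPM was 4842 in #1, 3889 in #2, 4776 in #3 and 4794 in the control. The control lay within the subclones, whose mean was 4502 ± 532 (SD, n = 3), and #2 was the lowest library. The log2 fold change was -0.09 with a 95% interval from -0.57 to 0.39 (edgeR adjusted p = 0.778). Ranked by FPKM, *Pou5f1* was number 1 among the tested transcription factor genes in all 4 libraries.

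*Sox2* (ENSRNOG00000012199, chromosome 2, 121165137 to 121167545, plus strand) encodes the HMG-box partner of POU5F1. Its CPM was 594 in #1, 370 in #2, 668 in #3 and 305 in the control. The subclones were thus 1.94-fold, 1.21-fold and 2.19-fold above the control, #2 standing closest to it. Over the 3 subclones the log2 fold change was 0.83 with a standard error of 0.36 and a 95% interval from -0.03 to 1.69 (edgeR adjusted p = 0.157). The interval includes both no change and more than a doubling. Without #2, *Sox2* was called at a log2 fold change of 1.05 (edgeR adjusted p = 0.00144).

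*Nanog* (ENSRNOG00000008368, chromosome 4, 155531906 to 155539268, plus strand) encodes the homeodomain factor that lets mouse ESCs self-renew without LIF when overproduced. Its CPM was 334 in #1, 494 in #2, 384 in #3 and 468 in the control. Here #2 was the highest subclone and the control fell between #3 and #2. The log2 fold change was -0.21 with a 95% interval from -0.86 to 0.43 (edgeR adjusted p = 0.604). *LOC100909595*, annotated on the opposite strand across *Nanog*, had 308 counts in #1, 86 in #2, 504 in #3 and 161 in the control. The library kit does not mark strand, so reads of the pair cannot be told apart by strand, and the *Nanog* value is uncertain to that extent. Processed copies of *Pou5f1* and *Nanog* exist in mammalian genomes, and reads shared with such copies were not examined.

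*Klf2* (ENSRNOG00000014205, chromosome 16, 19223087 to 19225037, minus strand) was at 1913, 1603 and 2386 CPM in #1, #2 and #3 and at 2214 in the control. *Klf4* (ENSRNOG00000016299, chromosome 5, 72283313 to 72287669, minus strand), a target of LIF and STAT3, was at 40.9, 70.0 and 42.6 CPM against 64.2. *Klf5* (ENSRNOG00000008785, chromosome 15, 83703791 to 83722921, plus strand), which is also needed in the early trophectoderm, was at 144, 108 and 208 CPM against 160. For all 3 zinc finger genes the control fell inside the subclones, and #2 was lowest for *Klf2* and *Klf5* but highest for *Klf4*. The log2 fold changes were -0.17 for *Klf2* (95% interval -0.78 to 0.44), -0.33 for *Klf4* (-1.20 to 0.54) and -0.06 for *Klf5* (-0.94 to 0.82), with edgeR adjusted p-values of 0.662, 0.552 and 0.919. Per exon length, *Klf2* made up 96.8%, 96.1% and 96.6% of the summed FPKM of the 3 *Klf* genes in #1, #2 and #3 and 96.6% in the control. Its FPKM was 105, 51.3 and 125 times that of *Klf4* in the subclones and 77.3 times in the control.

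*Tbx3* (ENSRNOG00000008706, chromosome 12, 42480560 to 42492526, minus strand) encodes a T-box factor that is sustained by LIF-dependent signalling and can also take part in the move to extraembryonic endoderm. Its CPM was 492 in #1, 353 in #2, 569 in #3 and 305 in the control, that is, 1.62-fold, 1.16-fold and 1.87-fold above the control. The order of the libraries was the same as for *Sox2*. The log2 fold change of *Tbx3* was 0.63 with a standard error of 0.31 and a 95% interval from -0.11 to 1.37 (edgeR adjusted p = 0.200). Without #2 it was called at 0.80 (edgeR adjusted p = 0.00751).

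*Prdm14* (ENSRNOG00000021792, chromosome 5, 5710392 to 5730560, plus strand) encodes a PR-domain zinc finger protein that represses FGF receptor signalling and DNA methyltransferase genes in mouse ESCs. Its CPM was 27.0 in #1, 46.9 in #2, 33.9 in #3 and 19.2 in the control. Each subclone was above the control, by 1.40-fold, 2.44-fold and 1.76-fold, and here #2 stood farthest from it. The log2 fold change was 0.90 with a standard error of 0.39 and a 95% interval from -0.03 to 1.83 (edgeR adjusted p = 0.158). Taken over the 10 factors, the control lay below the subclones in 5, inside their range in 5 and above them in 0. Over all tested genes it lay outside the range in 75.7%, below it in 5720 and above it in 5655.

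**Figure D2:**
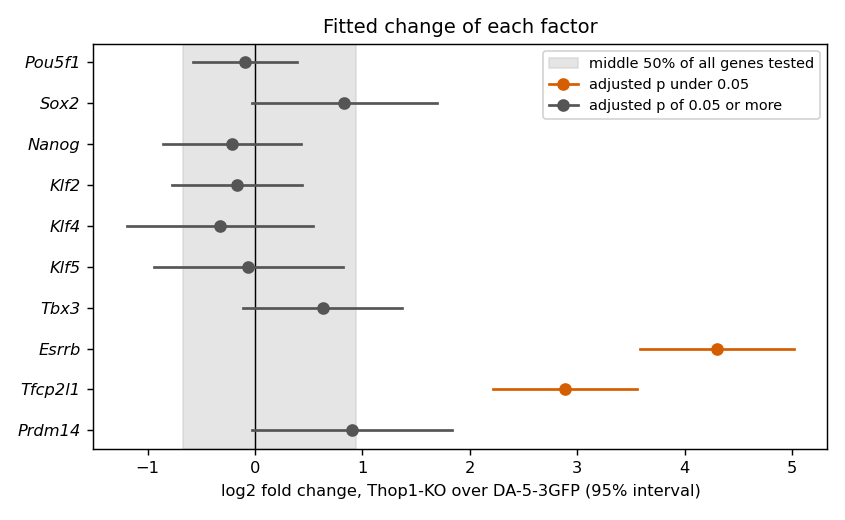
Log2 fold change of *Thop1*-KO over DA-5-3GFP for each factor (points) with its 95% interval (lines), and the middle 50% of all genes tested (grey band, -0.68 to 0.94). The intervals of *Esrrb* and *Tfcp2l1* lie right of the band, and those of the other 8 factors include 0.

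The subclones differed among themselves. Over the 7705 tested genes with a mean of at least 10 CPM, the highest subclone was at the median 1.37 times the lowest, and the median CV was 16.3%. For 7 of the 10 factors the ratio was larger than this median, the exceptions being *Pou5f1* (1.24), *Esrrb* (1.15) and *Tfcp2l1* (1.21). The ratio was 1.91 for *Klf5*, whose CV was 32.8%, and the CV was 31.9% for *Klf4*, 28.6% for *Sox2*, 28.2% for *Prdm14*, 23.2% for *Tbx3*, 20.3% for *Nanog* and 20.1% for *Klf2*. The called factors were thus among the least variable and the uncalled *Sox2*, *Tbx3* and *Prdm14* among the more variable ones. The test takes its spread from these same subclones, so this pattern is tied to the calls and is not a separate result.

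Subclone #2 stood apart in both directions. It was the lowest subclone for *Pou5f1*, *Sox2*, *Klf2*, *Klf5*, *Tbx3* and *Esrrb* and the highest for *Nanog*, *Klf4* and *Prdm14*. Relative to the mean of the 3 subclones on the log2 CPM scale, #2 was at -0.51 for *Sox2*, -0.45 for *Klf5* and -0.39 for *Tbx3*, and at 0.50 for *Klf4*, 0.42 for *Prdm14* and 0.31 for *Nanog*. Subclone #3 was the highest for 5 factors and the lowest for 0, and #1 was the highest for 2 and the lowest for 4. Among the 7705 genes, #2 was the lowest subclone for 45.9% and the highest for 34.8%, so that being at an extreme was common in #2 for genes at large. Over the same genes, #3 was the lowest for 23.0% and the highest for 23.1%, and #1 for 31.1% and 42.2%. The *Sox2* to *Nanog* ratio of FPKM was 1.80 in #1, 0.760 in #2, 1.77 in #3 and 0.662 in the control, #2 being the subclone nearest to the control.

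Leaving out #2 raised the number of factors called from 2 to 4, all higher, with *Sox2* and *Tbx3* joining *Esrrb* and *Tfcp2l1*. The same step raised the share of all tested genes called higher to 21.1%, or 3096 of 14704, and the total called from 2072 to 5572. Without #3 the total called was 457, and *Esrrb* and *Tfcp2l1* were still called. The log2 fold changes of *Pou5f1* and *Klf5* without #2 were 0.01 and 0.14, of the opposite sign to those with all subclones, and neither was called.

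**Figure D3:**
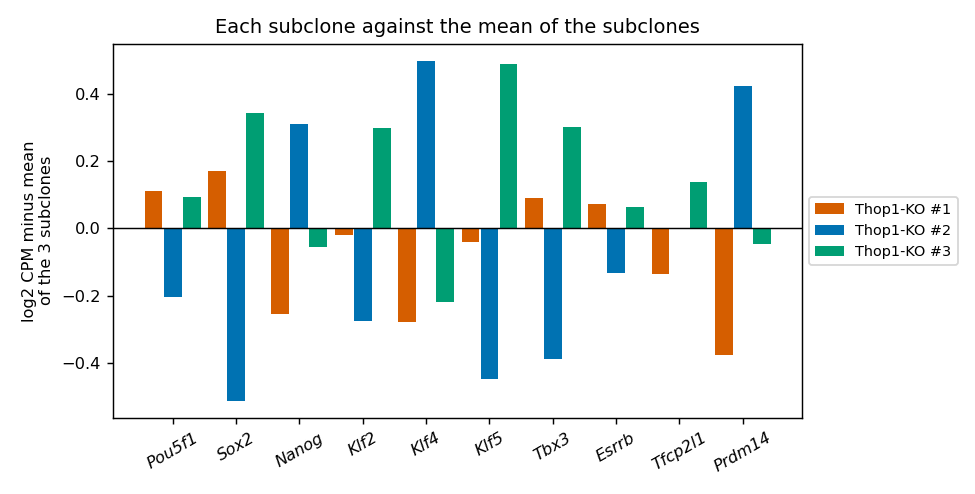
Log2 CPM of each subclone minus the mean of the 3 subclones (bars, by factor and subclone). Bars of #2 point down for *Sox2* (-0.51) and *Klf5* (-0.45) and up for *Klf4* (0.50), whereas the bars of *Esrrb* and *Tfcp2l1* stay between -0.14 and 0.14.

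Levels of different genes were compared as FPKM, which divides by exon length. In the mean of the subclones the order was *Pou5f1* (3138 FPKM), *Klf2* (1833), *Esrrb* (238), *Sox2* (230), *Nanog* (169), *Tbx3* (154), *Klf5* (44.2), *Tfcp2l1* (34.0), *Klf4* (21.3) and *Prdm14* (21.1). Neighbours from *Esrrb* to *Tbx3* overlapped in their ranges over the subclones, as did *Klf5* with *Tfcp2l1* and *Klf4* with *Prdm14*. The steps from *Pou5f1* to *Klf2*, from *Klf2* to *Esrrb*, from *Tbx3* to *Klf5* and from *Tfcp2l1* to *Klf4* were wider than these ranges. In the control the order was *Pou5f1* (3347 FPKM), *Klf2* (2068), *Nanog* (196), *Sox2* (130), *Tbx3* (99.4), *Klf5* (46.3), *Klf4* (26.8), *Esrrb* (12.1), *Prdm14* (11.3) and *Tfcp2l1* (4.61). With 1 control library no spread can be put on that order.

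*Esrrb* moved from place 8 of 10 in the control to places 4, 3 and 4 in #1, #2 and #3, and *Tfcp2l1* from place 10 to places 8, 7 and 8. As a share of the *Pou5f1* FPKM, *Esrrb* was at 7.40%, 7.99% and 7.45% in the subclones and 0.361% in the control. Among the tested transcription factor genes ranked by FPKM, *Esrrb* was number 10, 11 and 10 in the subclones and 189 in the control, and *Tfcp2l1* was number 105, 85 and 85 against 327. The summed FPKM of the 10 factors was 6116, 5036 and 6498 in #1, #2 and #3 and 5942 in the control. The control sum fell inside the range of the subclones, since *Pou5f1* gave 50.7% to 55.6% of the sum in the subclones and 56.3% in the control, and *Klf2* gave 29.4% to 33.9% and 34.8%.

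**Figure D4:**
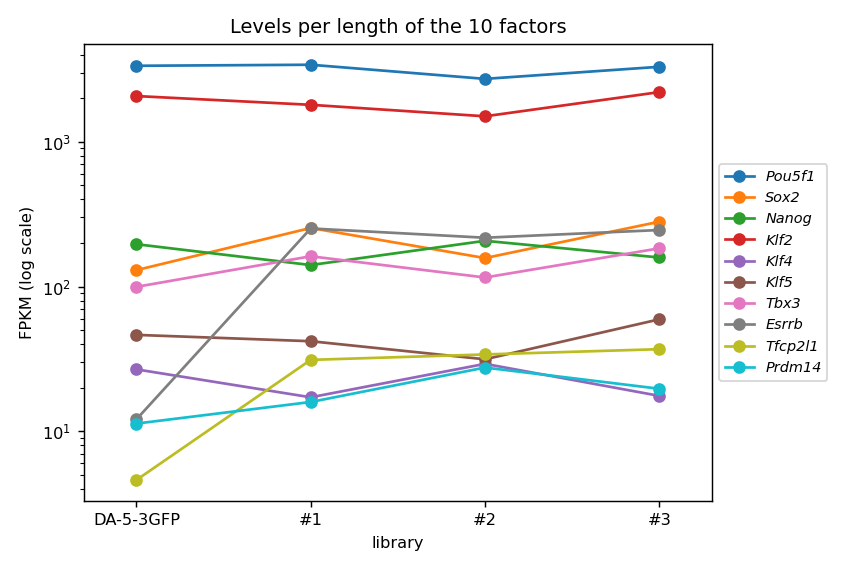
FPKM (log axis) of the 10 factors in each library; the lines only join the values of 1 gene. *Esrrb* and *Tfcp2l1* sit near the bottom in the control (12.1 and 4.61 FPKM) and higher in the subclones, while *Pou5f1* and *Klf2* are at the top in all 4 libraries.

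The paralogues of the factors in the POU, SOX, KLF, TBX, ESRR, CP2 and PRDM families numbered 76, of which 42 were tested. Of these, 7 were called higher and 0 lower. Among all genes tested 8.62% were called higher, and among the 974 transcription factors 11.0%. At an unadjusted edgeR p under 0.05 there were 11 paralogues, all higher. Such p-values were common among all genes, *Sox2* ranking 5312 of 15028 at an edgeR p of 0.0556. DESeq2 called 8 higher and 0 lower, and limma on log2(FPKM + 1) called 5 higher and 0 lower. With limma and no filter on low counts the direction turned, with 0 called higher and 2 lower, *Tbxt* and *Prdm8*, which have 0 counts in each subclone and 10 and 6 in the control and are left out by the filter. The median log2 fold change over the 42 was 0.56, beside 0.06 over all genes tested and 0.34 over the 974 transcription factors. *Klf17*, the family member with the largest change among those called, was at 10.8, 18.8 and 9.18 CPM in #1, #2 and #3 and 0.807 in the control (log2 fold change 3.99, edgeR adjusted p = 0.0171). *Klf13* (2.34), *Klf6* (1.93), *Sox12* (2.34), *Prdm4* (1.76) and *Ubp1* (1.24) were the others beside *Esrra*. *Esrra*, the tested relative of *Esrrb*, was at 221, 122 and 173 CPM against 51.0, a log2 fold change of 1.76 (edgeR adjusted p = 0.0343).

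Other genes of the naive state showed changes in both directions. Of 17 tested gene entries, 4 were called higher and 2 lower, beside 8.62% and 5.17% of all genes tested. Their median log2 fold change was 0.01. *Dppa3* had separate entries among them, with log2 fold changes of 1.12 and -0.61, neither called. *Fgf4*, a growth factor target of POU5F1 and SOX2, was at 113, 90.4 and 112 CPM in #1, #2 and #3 and 10.2 in the control (log2 fold change 3.37, edgeR adjusted p = 0.00678). *Sall4* (2.72), *Zfp57* (2.89) and *Dppa4* (1.13) were also higher. *Utf1* (-1.51), at 622, 405 and 626 CPM against 1566, and *Dppa5* (-1.02), at 185, 212 and 164 against 378, were lower. *Zfp42*, the reporter's host gene, was not analysed here. The labelled identity as ESCs was matched by *Pou5f1* at the top of the transcription factors, and *Lin28a*, an RNA-binding marker of pluripotent cells, was at 57.6, 125 and 73.8 CPM against 149 (not called, edgeR adjusted p = 0.216).

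Among genes that feed the factors from LIF, Wnt and ERK signalling, 17 were tested, 5 were called higher and 0 lower, with a median log2 fold change of 0.22. The shares over all genes tested were 8.62% higher and 5.17% lower, and whether the list departs from them was not tested. Of the LIF arm, *Il6st*, the shared receptor subunit gp130, was at 34.2, 62.8 and 49.5 CPM in #1, #2 and #3 and 9.69 in the control (log2 fold change 2.33), and *Socs3*, a feedback inhibitor induced by STAT3, was at 282, 194 and 230 against 43.3 (2.44). *Stat3* itself was at 281, 227 and 309 CPM against 153, a log2 fold change of 0.83 that was not called (edgeR adjusted p = 0.083). Of the Wnt arm, *Ctnnb1*, which encodes beta-catenin, was at 391, 487 and 434 CPM against 113 (1.95), and *Gsk3a* was also called (1.51). *Tcf7l1*, the repressor of *Esrrb* in mouse ESCs, was at 109, 152 and 124 CPM against 168, with a log2 fold change of -0.39 that was not called (edgeR adjusted p = 0.338). Of the ERK arm, *Fgfr1*, a receptor for FGF ligands, was at 328, 200 and 215 CPM against 46.5 and was called higher (2.41).

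**Figure D5:**
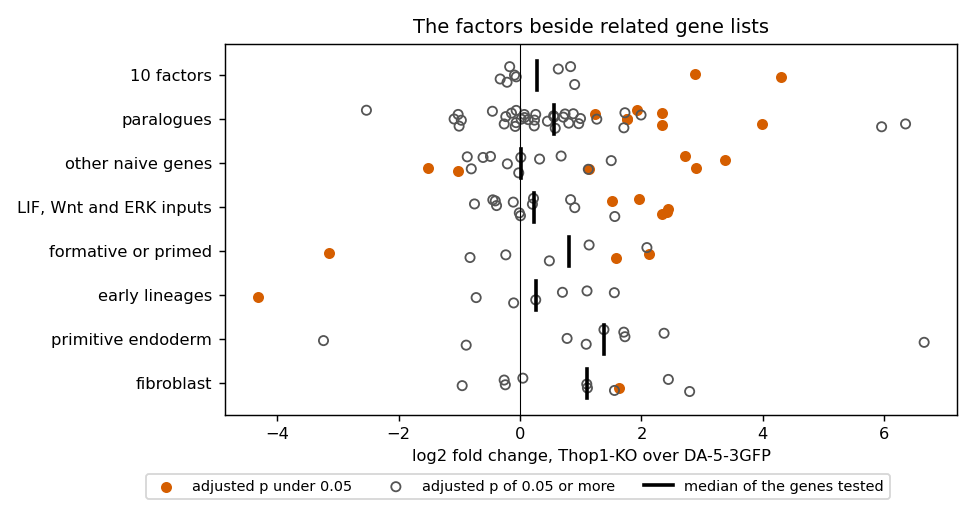
Log2 fold change (*Thop1*-KO over DA-5-3GFP) of each tested gene in the 10 factors and 7 related lists; filled points have an adjusted p under 0.05 and the black bar is the median. Filled points of the factors are *Tfcp2l1* (2.89) and *Esrrb* (4.30); points beyond 5 are genes with at most 3 counts in the control, whose size depends on the fit.

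Markers of other cells the cultures could hold were read beside these results. Of 10 tested fibroblast genes (feeders are fibroblasts), 1 was called higher, *Col5a1* (log2 fold change 1.63, edgeR adjusted p = 0.0399), and 0 were lower. Over all genes tested, 8.62% were called higher and 5.17% lower. The genes did not all move the same way. The control was below every subclone for 6, inside their range for 3 and above them for 1, *Acta2* (log2 fold change -0.95). *Tagln* (-0.24) and *S100a4* (-0.26) also had negative values. The summed level of the list was 445, 883 and 578 CPM in #1, #2 and #3 and 274 in the control. Most of it was *Col1a1*, at 304, 555 and 374 CPM against 190, while *Dcn*, *Lum* and *Thy1* were at 0 in all libraries. Subclone #2 had the highest summed fibroblast level. Of 9 tested primitive endoderm genes, edgeR called 0, DESeq2 1 and limma 0. The smallest edgeR adjusted p was 0.0894 for *Dab2* (8, 22 and 9 counts against 0). At an unadjusted edgeR p under 0.05 there were 5, of which 1 was lower in the subclones, *Gata4* (log2 fold change -3.24). The control exceeded every subclone for *Gata4* and *Col4a1* (-0.89) and lay below every subclone for 7 genes. The summed primitive endoderm level was 1402, 1729 and 2008 CPM in the subclones and 973 in the control, mostly *Lama1*, with the defining factors *Gata4*, *Gata6*, *Sox7* and *Sox17* at 3.76 CPM or less in every library. Both summed levels were higher in each subclone than in the control, as were *Esrrb* and *Tfcp2l1*, and their part in the results on the factors was not tested.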

How the data were processed

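RNA-seq of 1 DA-5-3GFP library (label WT) and 3 *Thop1*-KOGFP libraries was analysed, each assigned by its genotype label. Noise and adaptors were removed by the authors with the FASTX toolkit, and the submitters' processing notes name HISAT2 2.0.5 and featureCounts 1.5.0-p3. The genome build and strand setting are not given in the sources used here. The authors deposited raw counts per gene and FPKM values made from those counts, by dividing each count by exon length and by 1 factor per library. All value columns were mapped (0 left out).

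The test was edgeR 4.0.16 under R 4.3.3 (filterByExpr with a minimum count of 10, TMM, quasi-likelihood test, Benjamini-Hochberg adjustment over all 15028 genes tested). Standard errors and 95% intervals come from that fit. The alternatives were 3 other scalings, DESeq2 1.42.0, no filter, at least 10 counts in every library, limma 3.58.1 on log2(FPKM + 1) with and without the filter and on log2(FPKM + 0.1), and leaving out each subclone. Counts of up to 3 were taken as the floor. FPKM was used to compare genes with each other. Tables were made in Python 3.11.15 with pandas 2.3.3, numpy 2.4.6 and scipy 1.17.1, and figures with matplotlib 3.10.9. Promoter windows were RefSeq sequences matched by symbol.

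Named were the 10 factors, *Thop1* and the called genes of each list (or the gene with the smallest p where none was called). For each called factor, the 3 nearest genes were also named. Nearness was the Euclidean distance of centred log2 CPM, with a small constant added to each CPM before the log. The motifs, single list genes that were not called and the markers given as levels were chosen beyond that rule. Part of the signalling list is not reported here. The factors and lists were chosen with earlier results of these data known.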

Additional observations from a re-analysis of the deposited data

How the results depend on the processing

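*Esrrb* and *Tfcp2l1* were called in all 12 alternatives, with edgeR, DESeq2 or limma adjusted p-values from 1.98e-35 to 0.0173 and from 1.31e-16 to 0.0245. Of the 120 values of the factors under the alternatives, 116 kept their direction and side of the threshold. Exceptions were *Sox2* (1.05) and *Tbx3* (0.80), called without subclone #2, and *Pou5f1* and *Klf5*, which changed sign without it (ranges over the left-out subclones -0.137 to 0.00539 and -0.344 to 0.136). Leaving out each subclone gave 2 to 4 factors called, 457 to 5572 genes in all, 4 to 9 other naive genes, 3 to 8 signalling genes, 1 to 7 formative or primed genes, 0 to 2 primitive endoderm genes, 1 to 5 early lineage genes, 0 to 5 fibroblast genes and 1 to 10 paralogues. *Thop1* was not called by limma on log2(FPKM + 1) without the filter (log2 fold change -1.67, adjusted p = 0.0879). That setting called 872 genes in all, 332 higher and 540 lower, where edgeR called 1295 higher and 777 lower. It called 1 other naive gene and 2 signalling genes, all higher, 0 formative or primed genes, 0 fibroblast genes and 2 paralogues, both lower (7 higher and 0 lower by edgeR). By limma on log2(FPKM + 0.1) there was 1 formative or primed gene, and 0 fibroblast genes with either pseudocount. DESeq2 called 3006 genes in all, 1 primitive endoderm gene and 2 fibroblast genes. The cause of these changes was not tested. With at least 10 counts in every library 0 early lineage genes were called, since *Nes* (3 counts in #3) was then not tested. No scaling moved the median log2 fold change of all genes by more than 0.10. No paired analysis was possible because the control has 1 library and the groups share fewer than 2 replicate numbers. No fit could be made without the single control library. Factors with a difference near 2-fold had intervals that include 0, and the depth of *Prdm14* in the control was 286 counts.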

Other observations

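Of 8 tested genes of the formative or primed state, 2 were called higher and 1 lower, beside 8.62% and 5.17% of all genes tested. *Dnmt3a* and *Dnmt3b*, the de novo DNA methyltransferases, were at 195, 138 and 112 CPM and at 134, 128 and 87.0 CPM in #1, #2 and #3, against 49.5 and 26.6 in the control, with log2 fold changes of 1.58 and 2.13 (edgeR adjusted p = 0.0402 and 0.0176). *Etv4*, an ETS factor that responds to ERK signalling, was at 5.25, 26.4 and 10.6 CPM against 125, a log2 fold change of -3.15 (edgeR adjusted p = 0.0318). Its paralogue *Etv5* was at 494, 358 and 535 CPM against 331 and was not called. *Fgf5* had 0 counts in every library, and *Otx2* had 0 in the subclones and 2 in the control.

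Of 7 tested genes of other early lineages, 1 was called, beside 13.8% of all genes tested. *Nes*, an intermediate filament gene of neural progenitors, had 6 counts in #1, 13 in #2, 3 in #3 and 126 in the control (log2 fold change -4.31, edgeR adjusted p = 0.0147). *Cdx2*, a trophectoderm factor, was at 3.34, 35.9 and 4.95 CPM in #1, #2 and #3 and 24.3 in the control, so that #2 and the control were the high libraries. *Tbxt*, a mesoderm T-box gene, had 10 counts in the control and 0 in each subclone.

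Nearness to the called factors was measured on centred log2 CPM, with a small constant added to each CPM before the log. The tested genes nearest to *Esrrb* over the 4 libraries were *Nek2* (Euclidean distance 0.165), *Cox15* (0.207) and *Atg13* (0.218). *Cox15* was at only 0.135 CPM in the control, where the constant weighs most. Its log2 fold change was 6.40, against 4.30 for *Esrrb*, so its nearness depends on that constant. *Nek2*, a centrosomal kinase gene, was at 96.3, 95.0 and 108 CPM in #1, #2 and #3 and 5.05 in the control. For *Tfcp2l1* they were *Phactr4* (0.0748), *Hmgxb3* (0.0894) and *Gab1* (0.129), and *Gab1*, an adaptor of receptor signalling, was at 58.3, 64.9 and 75.4 CPM against 9.42. The distance between *Esrrb* and *Tfcp2l1* was 1.23. With 4 libraries, 1 of them the control, such likeness is a description of the same contrast. *Klf15* was uneven among the subclones, with 607 counts in #1, 27 in #2 and 242 in #3, against 3 (edgeR adjusted p = 0.0930).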
